A study of Mus musculus with 4 samples.

Results

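The major urinary protein (Mup) genes form a cluster of close copies on mouse chromosome 4, and 8 of them, Mup1, Mup2, Mup3, Mup4, Mup5, Mup17, Mup19 and Mup20, were followed in the salivary glands (SGs) of Myd88-/- and Myd88+/+ mice. They were found by the gene name that the array files give to each probe, and they had been chosen because earlier values of these same arrays differed between the genotypes. Of the 8 genes, 7 had a probe under their own name, with 9 probes among the 55681 non-control probes of the array. No probe carried the name Mup1. Since the difference between the genotypes chose the genes, their values are given as a description and without a test.

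Expression was measured on 4 one-colour Agilent whole mouse genome arrays, 2 for each genotype, each of 1 sample, on which a brighter spot means more of the transcript that its probe binds. One genotype was Myd88-/-, which lacks the adaptor of most Toll-like receptors, and the other was Myd88+/+. Both were C57/BL6 and, by the labels, female and 10 weeks old, and no agent was given to either. The Myd88-/- line had been crossed repeatedly to C57BL/6 mice, and both genotypes were offspring of heterozygous parents. The labels name the submandibular gland (SMG) and the sublingual gland (SLG) as the source, whereas the study's text names SMGs alone. Nothing in the sources used here says whether a sample was 1 mouse or pooled mice, so the spread between arrays may be partly technical. The legends of the study give 3 mice for each genotype, and 2 arrays for each were analysed here.

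Mup proteins are lipocalins, small secreted proteins with a barrel-shaped pocket that binds hydrophobic ligands. They are best known from liver, which releases them into blood and so into urine, where they carry and slowly release volatile pheromones. In liver their transcription depends on growth hormone pulses, androgens, thyroid hormone and glucocorticoids, and males make more of them than females. Some family members are also made in exocrine glands of the head, among them salivary and lacrimal glands. Mup20 encodes darcin, a male pheromone protein.

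The probes are 60 bases long, and several differ at only a few positions, which decides what each of them can read. The probe of Mup3 (chr4:61745794-61745853, mm9) can be set base by base against the probe named Mup6 (chr4:60018835-60018894) and an unnamed transcript of the same cluster, TC1781567 (chr4:61271765-61271824). In these lines, written 5′ to 3′ as the files give them, capitals mark bases that differ from the Mup3 probe.
Mup3: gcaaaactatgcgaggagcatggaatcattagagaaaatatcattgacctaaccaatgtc
Mup6: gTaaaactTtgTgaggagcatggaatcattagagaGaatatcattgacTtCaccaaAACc
TC1781567: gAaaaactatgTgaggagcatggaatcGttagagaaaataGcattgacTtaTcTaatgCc
The Mup6 probe was identical to the Mup3 probe at 51 of 60 bases and the TC1781567 probe at 52 of 60. The log2 difference between the genotypes was 2.44 for Mup3, 2.16 for TC1781567 and 0.72 for Mup6.

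A second pair shows the same closeness. The probe of Mup20 that starts at base 314 of its transcript (chr4:61713671-61713730, mm9) was identical at 54 of 60 bases to that of Mup-ps21 (chr4:61691724-61691783), which the files name as a pseudogene. Capitals mark the bases at which Mup-ps21 differs from Mup20.
Mup20: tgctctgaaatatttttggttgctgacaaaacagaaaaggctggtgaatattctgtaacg
Mup-ps21: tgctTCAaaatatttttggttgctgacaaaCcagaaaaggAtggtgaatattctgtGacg
The log2 difference was 2.20 for the Mup20 probe and 0.64 for the Mup-ps21 probe.

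The Mup5 probe (chr4:61496097-61496156, mm9) starts with an ATG, shown in capitals, at base 58 of its transcript.
Mup5: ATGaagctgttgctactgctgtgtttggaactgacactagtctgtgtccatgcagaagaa
The second probe of Mup4, at base 95 (chr4:59973383-59973442), lies at nearly the same place of its own transcript and matches the Mup5 probe at 22 of 24 aligned bases, with a longest shared run of 12 bases, in capitals here.
Mup4: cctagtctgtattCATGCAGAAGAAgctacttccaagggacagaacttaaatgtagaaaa
Toward the other end of the transcripts, the Mup4 probe at base 669 and the Mup20 probe at base 688 share a run of 24 bases, aagttctgtgatctgctttccatc. Gene models of the mm9 build were not used here, so the exon or UTR of each probe is not given.

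The files also list the transcripts that each probe was designed to match. Only the RefSeq transcripts of these lists were read. Among them the probes of Mup3, Mup4 and Mup5 were listed for their own gene only, which does not exclude binding to near copies. Each Mup20 probe was listed for 3 RefSeq transcripts, of which 1 could be named, as Mup20. The Mup2 probe was listed for Mup1 and Mup2, the Mup17 probe for Mup11, Mup16 and Mup17, and the Mup19 probe for Mup1, Mup17 and Mup19, with 1 further transcript each on the Mup17 and Mup19 probes that could not be named. Mup1 was therefore read only together with other genes, and the part of each gene in the signal of a shared probe cannot be told apart. Over the whole array, runs of 30 or more bases shared with a cluster probe occurred in 2 pairs of probes, both inside the cluster, and 1 of them joined Mup17 to LOC100048884, which RefSeq names Mup18, by 35 bases.

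All 9 probes of the 7 genes were well above background on all 4 arrays. Values are log2 intensities relative to the 75th percentile of the array, so that 0 is the brightness of a spot at that percentile, and a difference of 1 is a doubling. Levels of different probes cannot be compared, because probes differ in how well they bind.

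Mup4 was read at chr4:59969824-59969883 (mm9) by its brighter probe, at base 669. The log2 values were 9.08 and 9.57 in Myd88-/- and 7.57 and 6.93 in Myd88+/+, or 9.33 ± 0.35 against 7.25 ± 0.45 (SD, n = 2 each). Both Myd88-/- arrays were above both Myd88+/+ arrays, and the log2 difference was 2.08 ± 0.31 (SE), which is 4.23-fold. Before any scaling the intensities were 138670 and 180892 against 60797 and 32815, so the groups did not overlap there either.

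The other Mup4 probe, at base 95, gave much closer values. They were 0.34 and 0.11 in Myd88-/- and −0.05 and −0.47 in Myd88+/+, a log2 difference of 0.48 ± 0.20 (SE). The differences seen by the probes of Mup4 were thus 1.60 log2 units apart. At base 95 the unscaled intensities, 324 and 257 against 310 and 195, overlapped, and so did the values when arrays were scaled on their medians, where the lowest Myd88-/- value was 0.16 below the highest Myd88+/+ value.

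Mup20, the darcin gene, had a probe at base 688 (chr4:61711407-61711466) and one at base 314. At base 688 the values were 7.57 and 8.04 on the Myd88-/- arrays against 5.96 and 5.34, and at base 314 they were 6.38 and 6.91 against 4.74 and 4.14. The groups lay apart on both probes. The log2 differences were 2.15 ± 0.30 and 2.20 ± 0.31 (SE), only 0.05 apart, unlike those of the Mup4 probes.

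Mup5 showed the largest log2 difference of the 7 genes, 2.47 ± 0.41 (SE). Its values were 7.24 and 7.88 in Myd88-/- and 5.53 and 4.65 in Myd88+/+. The Myd88+/+ arrays differed from each other by 0.88 log2 units, the widest such distance among the member probes, and still lay below both Myd88-/- arrays.

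Mup3 gave 6.15 and 6.72 in Myd88-/- and 4.35 and 3.64 in Myd88+/+. Its log2 difference, 2.44 ± 0.35 (SE), or 5.43-fold, was close to that of Mup5, and the distance between them is smaller than either error.

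Mup17 (chr4:61253019-61253078) and Mup19 (chr4:61439496-61439555), whose probes also match other copies of the cluster, behaved alike. Mup17 gave 7.39 and 7.69 in Myd88-/- and 5.64 and 5.0 in Myd88+/+. Mup19 gave 5.31 and 5.67 in Myd88-/- and 3.71 and 3.08 in Myd88+/+. The groups did not overlap for either gene, and the log2 differences were 2.22 ± 0.28 and 2.09 ± 0.28 (SE).

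Mup2 (chr4:60149741-60149800), whose probe is also listed for Mup1, was the exception. It was dim, with −1.65 and −1.57 in Myd88-/- and −1.87 and −2.01 in Myd88+/+, a log2 difference of 0.32 ± 0.11 (SE), or 1.25-fold. The unscaled intensities of 81.5 and 79.9 against 88.1 and 67.0 overlapped between the genotypes. With median scaling the lowest Myd88-/- value was 0.30 below the highest Myd88+/+ value, so that its separation depended on the scaling.

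**Figure D1:**
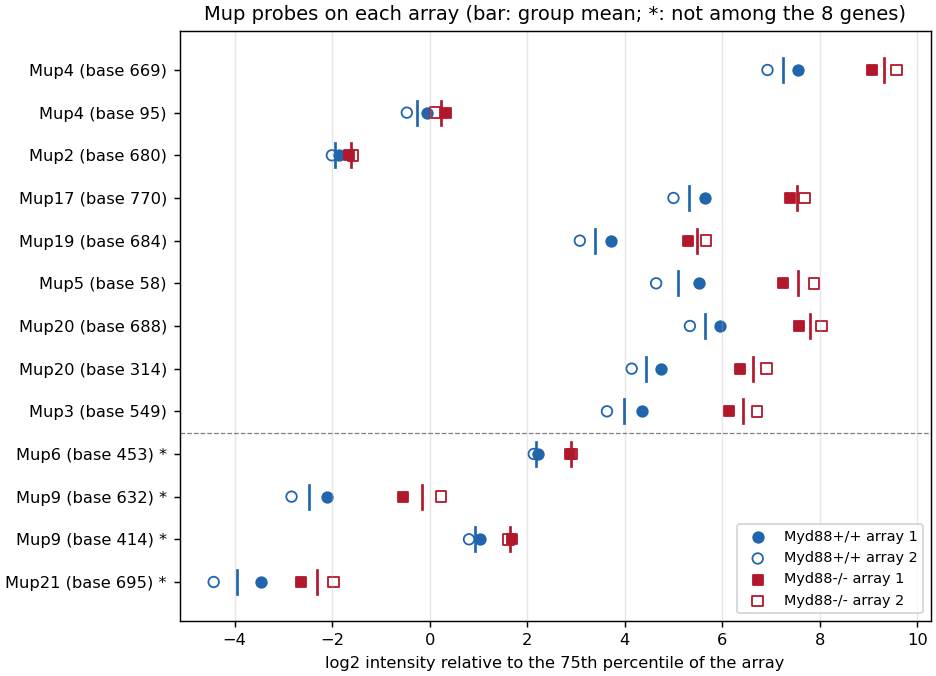
Log2 intensity relative to the 75th percentile of the array (x axis) for each Mup-named probe (rows, with the base of the transcript at which the probe starts). Squares are Myd88-/- arrays, circles Myd88+/+ arrays, filled for array 1 and open for array 2, and bars are group means (n = 2). On 7 of the 9 member probes the squares lie at least 1.51 log2 units to the right of the circles, while on the Mup4 probe at base 95 and the Mup2 probe they lie close.

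Taken by gene, with the brightest tested probe for each, the arrays of the genotypes did not overlap and Myd88-/- was higher for 7 of the 7 genes. Over all 22312 genes tested this held for 33.2%. A log2 difference above 1 without overlap was found for 6 of the 7, against 1.22% of all genes. The genes were chosen on this contrast, so nothing is read from these shares. The median log2 difference over the 7 genes was 2.15, and that over all genes tested was 0.06. Ordered by their increase, Mup5 stood at place 27 of 22312, Mup3 at 28, Mup17 at 41, Mup20 at 51, Mup19 at 52, Mup4 at 53 and Mup2 at 3828. In limma's test with Benjamini-Hochberg adjustment 0 of the 22312 genes passed an adjusted p of 0.05, and 3715 (16.7%) had an unadjusted p under 0.05, 2190 (9.82%) of them higher and 1525 (6.83%) lower in Myd88-/-. This majority depended on the scaling, with 240 higher and 755 lower when arrays were scaled on their medians, and 1654 and 1888 when the percentile was taken over detected probes.

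The order of the single arrays was the same on 8 of the 9 member probes and differed on the Mup4 probe at base 95. On all 7 member probes with a log2 difference above 1, Myd88-/- array 2 was highest, followed by Myd88-/- array 1, Myd88+/+ array 1 and Myd88+/+ array 2. On these probes the Myd88-/- arrays were 0.30 to 0.65 log2 units apart and the Myd88+/+ arrays 0.60 to 0.88, while the lowest Myd88-/- value exceeded the highest Myd88+/+ value by 1.51 to 1.80. Detection was ordered differently. On Myd88-/- arrays 1 and 2, 52.2% and 68.4% of the probes were well above background, and on Myd88+/+ arrays 74.1% and 55.1%. Between Myd88-/- array 1 and Myd88+/+ array 2, which had similar shares, the 7 probes differed by 2.15 to 2.59, and between Myd88-/- array 2 and Myd88+/+ array 1 by 1.96 to 2.37.

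The other probes of the cluster, which did not serve to choose the genes, were then read together with the member probes. The array holds 25 probes in the cluster, between 59969824 and 61808925 on chromosome 4 (mm9), a stretch of 1.84 Mb. Besides the 9 member probes they are 4 probes of Mup6, Mup9 and Mup21 and 12 probes with another name or none. On 21 of the 25 probes, 9 of them member probes, all 4 arrays were well above background. On all 21 both Myd88-/- arrays were above both Myd88+/+ arrays, and on 19 of the 21 this also held before any scaling. With scaling it held for 33.2% of all genes tested. Among probes within 2 Mb outside the cluster that were well above background on all arrays, it held for 20 of 59. These probes are not independent of the 8 genes, since they read near copies of the same transcripts on the same arrays.

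The differences on these 21 probes fell apart into a larger set of 16, with log2 differences of 2.01 to 2.52, and a smaller set of 5, with 0.32 to 0.73. None lay between with the scaling reported here. The highest, 2.52 ± 0.44 (SE), came from a dim probe of ENSMUST00000098035, whose other probe at the same place gave 2.30 ± 0.35 (SE). In the smaller set, beside Mup2 and the Mup4 probe at base 95, were Mup6 (0.72 ± 0.10, SE), the Mup9 probe at base 414 (0.73 ± 0.13, SE) and Mup-ps21 (0.64 ± 0.12, SE). The Mup6 probe is also listed for Mup4, and the Mup9 probe at base 414 for Mup1, Mup2 and Mup19. The other Mup9 probe, at base 632, gave 2.32 ± 0.40 (SE), with values of −0.55 and 0.23 on the Myd88-/- arrays against −2.11 and −2.83. With normexp background correction the difference on that dim probe was 1.48.

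Mup21, at the far end of the cluster, was well above background on both Myd88-/- arrays and on 1 of the 2 Myd88+/+ arrays. Its values were −2.64 and −1.97 against −3.46 and −4.43, a log2 difference of 1.64 ± 0.44 (SE), which was 0.67 with normexp background correction. Of the 12 other probes, 8 gave log2 differences of 2.01 to 2.52. One of them, ENSMUST00000153865 (chr4:61462131-61462190), gave 8.98 and 9.41 in Myd88-/- and 7.50 and 6.86 in Myd88+/+. Its sequence matched the Mup4 probe at base 669 at 43 of 44 aligned bases.

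**Figure D2:**
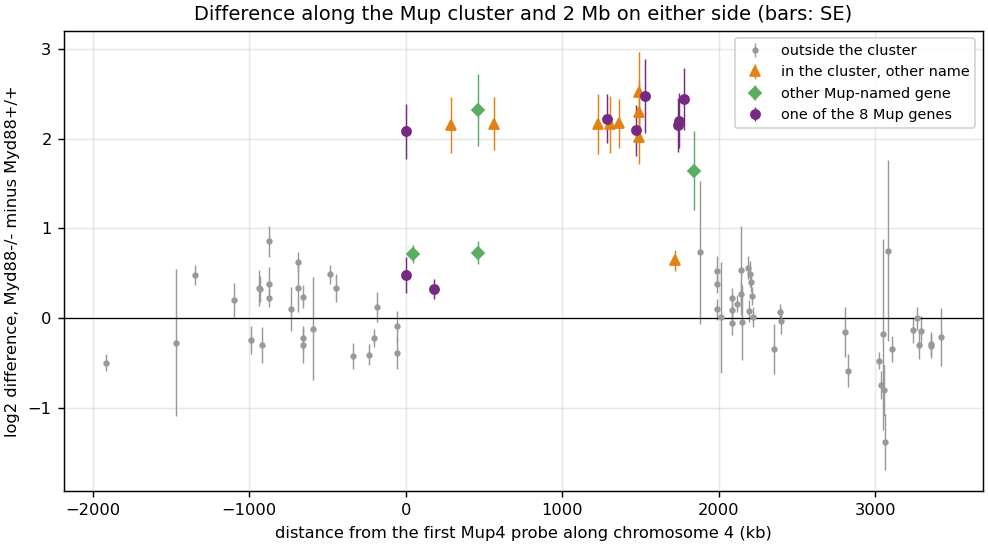
Log2 difference, Myd88-/- minus Myd88+/+ (y axis, with the SE), of every tested probe by its distance along chromosome 4 in kb from the first Mup4 probe (x axis). Purple points are the member probes, green other Mup-named genes, orange other probes in the cluster, and grey probes within 2 Mb of it. The cluster probes lie near 2 or between 0.32 and 0.73, except Mup21 at 1.64, and the neighbours scatter around 0.

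Genes on either side of the cluster were read in the same way. Of 55 genes with a probe within 2 Mb of it, 39 were tested, and their median log2 difference was −0.03, with a range of −1.38 to 0.73. In limma's test 0 of the 39 passed after adjustment over all genes. Without adjustment 5 were higher and 5 lower, beside 9.82% and 6.83% of all genes tested. Among these 10 genes the 4 with the largest difference were Akna, a transcription factor of lymphocytes (−1.38 ± 0.31 (SE), adjusted p = 0.215 in limma), Orm1, an acute phase lipocalin (−0.74 ± 0.16, 0.209), Zfp618, a zinc finger protein (−0.58 ± 0.19, 0.275), and Bspry (0.56 ± 0.13, 0.221). With normexp background correction the differences shrank to −0.81 for Akna, −0.29 for Orm1 and −0.34 for Zfp618, and that of Zfp618 was −0.37 with the mean of its probes and −0.36 without Myd88+/+ array 2. None of the 59 neighbour probes well above background on all arrays had a log2 difference above 1, whereas 16 of the 21 cluster probes did. Of these 16, 7 were member probes, whose genes were chosen on this contrast. Another 8 came from the 9 cluster probes with another name or none, which read near copies of the members. The difference between these shares was not tested.

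The genes whose pattern over the 4 arrays was nearest to that of Mup4 lay in the cluster as well. The pattern of a gene was its 4 values less their mean, and likeness was the root mean square distance to the pattern of the Mup4 probe at base 669 over 20484 genes not named Mup. The 5 nearest were all cluster transcripts without a gene symbol, at distances of 0.04 to 0.06 log2 units, with A_55_P2144090 the nearest, at 0.038. Its probe and that of the next, ENSMUST00000153865, each matched the Mup4 probe at 43 of 44 aligned bases. Such probes can bind the same transcripts, so their likeness to Mup4 is not independent of it. Among the members the distance was 0.037 for Mup20, 0.047 for Mup19, 0.099 for Mup17, 0.18 for Mup3, 0.22 for Mup5 and 0.91 for Mup2. Outside the cluster, looked at after these values were seen, the nearest was an unnamed transcript of chromosome 10, at 0.17, and the nearest with a gene symbol was Folh1, a peptidase that cleaves glutamate from peptides and folates, at 0.26. Folh1 gave 0.13 and 0.04 in Myd88-/- and −1.73 and −2.68 in Myd88+/+.

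The promoters were compared because most members, though not Mup2, had similar differences. The genes were chosen on this contrast and several probes are listed for shared copies, so nothing is read from that likeness. RefSeq promoters (GRCm38.p6) were at hand for Mup2, Mup3, Mup4, Mup17 and Mup19. Each holds a TATATAA a short way before the start of the transcript, on the strand of the gene, which was the only strand searched, as do 11 of 14 Mup promoters in the table and 675 of all 32851 promoters (2.05%) in the 250 bases before the start. The lines give the 37 bases around it, on the minus strand, with capitals where a base differs from Mup4.
Mup4 (chr4:59960680-59960716): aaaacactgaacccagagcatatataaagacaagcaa
Mup2 (chr4:60139867-60139903): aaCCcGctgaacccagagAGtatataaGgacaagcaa
Mup17 (chr4:61595841-61595877): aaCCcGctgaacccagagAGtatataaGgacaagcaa
Mup19 (chr4:61782239-61782275): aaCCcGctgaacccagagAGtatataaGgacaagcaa
Mup3 (chr4:62087312-62087348): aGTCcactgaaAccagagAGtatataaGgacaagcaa
The windows of Mup2, Mup17 and Mup19 were the same in every base. The log2 difference was 0.32 on the Mup2 probe and 2.22 and 2.09 on those of Mup17 and Mup19. Each of these probes is also listed for other Mup genes, so its difference cannot be assigned to a single promoter. The part of the promoters in the differences was not tested. Over the aligned stretch of the 250 bases Mup2 was 99.2% identical to Mup17 and 98.8% to Mup19, whereas Mup4 was 91.6% and Mup3 88.8% identical to Mup2. The letters TTCNNNGAA, the core that STAT5 binds, which reads the same on both strands, were in 0 of the 14 Mup promoters within these 250 bases and in 2306 of the 32851 (7.02%), which says only that they are not in this window.

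Genes of the hormone signals that govern Mup transcription in liver were read from a list of 19, of which 17 were tested. Their median log2 difference was −0.05, beside 0.06 over all genes tested. In limma's test 0 passed after adjustment over all genes. Without adjustment 2 were higher and 4 lower, beside 9.82% and 6.83% of all genes tested. Growth hormone receptor Ghr gave 2.35 and 2.37 in Myd88-/- and 2.35 and 2.47 in Myd88+/+, so that the genotypes overlapped. It was picked after its values were seen.

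Among the genes of the list with an unadjusted p under 0.05, the 4 with the largest difference were Esr1, Bcl6, Nr3c1 and Prlr. The estrogen receptor Esr1 was well above background on both Myd88+/+ arrays, at −4.51 and −3.87, and on neither Myd88-/- array, and no fold is given because its signal lay near the limit of detection. Bcl6, a repressor that competes with STAT5, had a log2 difference of 0.66 ± 0.19 (SE, adjusted p = 0.254 in limma), the glucocorticoid receptor Nr3c1 of −0.49 ± 0.12 (adjusted p = 0.222) and the prolactin receptor Prlr of 0.49 ± 0.16 (adjusted p = 0.281). The arrays of the genotypes did not overlap for these 3 genes, which were picked for their difference. The same held for 11 of the 17 genes tested and for 52% of all genes tested. Without Myd88+/+ array 2 the difference of Bcl6 was 0.44.

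The Mup proteins belong to the lipocalins, and the other lipocalin genes were read as a list. Of 28 listed, 22 were on the array and 13 were tested, with a median log2 difference of −0.07. In limma's test 0 passed after adjustment over all genes. Without adjustment 2 were higher and 3 lower, beside 9.82% and 6.83% of all genes tested. Among these the largest differences were those of Ptgds, which makes prostaglandin D2 (−1.42 ± 0.28 (SE), adjusted p = 0.204 in limma), of Rbp4, the retinol carrier of plasma (−0.89 ± 0.20, 0.214), of Orm1 (above), and of Lcn12 (0.51 ± 0.13, 0.235). With normexp background correction the difference was −0.46 for Ptgds, and with the mean of its probes that of Lcn12 was 0.075. Lcn3, Lcn4 and Lcn13 were among the 9 on the array that did not meet the detection rule and were not tested. Lcn4 and Lcn13 were well above background on 0 of the 4 arrays, and Lcn3 on 1 array of each genotype.

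**Figure D3:**
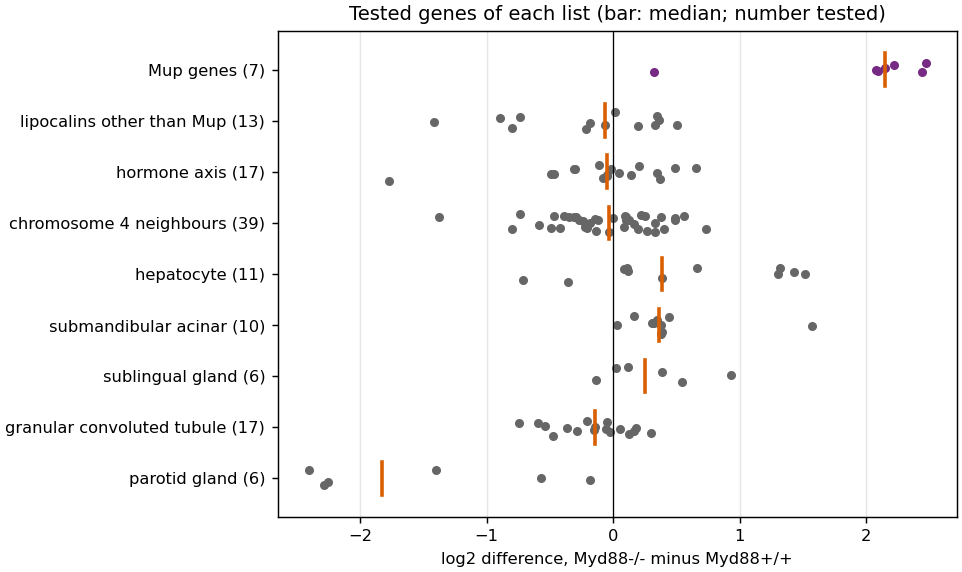
Log2 difference, Myd88-/- minus Myd88+/+ (x axis), of each tested gene (points) in the lists named on the y axis, with the number tested in brackets and an orange bar at the median. The Mup genes have a median of 2.15 with Mup2 apart at 0.32, and the medians of lipocalins, hormone axis and chromosome 4 neighbours lie between −0.07 and −0.03.

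The tissue and what else the samples could hold were checked with marker lists. All 10 genes of a list drawn up for SMG acini and all 17 of a granular convoluted tubule list were well above background on all arrays. Whether the genes of the acinar list, among them Smgc, Dcpp1, Dcpp2 and Dcpp3, are made only in acini was not tested. In limma's test 7 of the 10 genes of the acinar list were higher in Myd88-/- at an unadjusted p under 0.05, with a list median of 0.36. Over all genes tested 9.82% were, a share that depended on the scaling. The medians of the tubule and SLG lists were −0.14 and 0.25. The brightest gene of the acinar list, Dcpp2, gave 10.62 and 10.68 against 10.25 and 10.37, but its log2 difference was −0.018 with quantile normalization. The gene of that list with the largest difference, Smgc, gave 10.08 and 9.95 against 8.33 and 8.56 (adjusted p = 0.194 in limma). Over the alternatives the adjusted p of Smgc ran from 0.0131 to 0.539, and it passed with normexp (0.0245) and with trended and robust moderation (0.0131). Of the parotid markers, the brightest, Psp, gave 10.39 and 9.74 against 10.23 and 10.28, and Prh1 gave 4.73 and 2.75 against 6.31 and 6.0 (adjusted p = 0.267 in limma, 0.000628 with median scaling, at most 0.554 over the alternatives). All 6 parotid markers tested were lowest on Myd88-/- array 2, on which both Mup20 probes were highest, and the list median was −1.83. Without Myd88-/- array 2 the difference of Prh1 was −1.42. Genes of skeletal muscle (12 tested, median −4.14), B cells (8, −3.57), T cells (12, −2.93) and fat (10, −0.71) had lower mean values in Myd88-/- for every gene tested. The arrays of the genotypes did not overlap for 12, 8, 10 and 9 of them, in this order, and for 52% of all genes tested. The overlapping genes differed little, with −0.06 for Cd3e, −0.04 for Cd4 and −0.08 for Retn. The part of these lists and of the parotid markers in the Mup result was not tested. The summed level of the B cell list, in units of the 75th percentile, was 3.39 and 3.29 in Myd88-/- against 20.8 and 11.5 in Myd88+/+. For the skeletal muscle list the sum was at most 4.22 in Myd88-/-, and 33.9 and 187.9 on Myd88+/+ arrays 1 and 2. By the study's methods, lymph nodes, connective tissue and fat were dissected away from the glands. How much tissue from outside the gland each sample still held was not tested. Fewer cells of a type, less RNA per cell and less such tissue therefore cannot be told apart here.

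Liver genes were checked because liver is the main source of Mup transcripts. Of 17 hepatocyte genes on the array 11 were tested, with a median log2 difference of 0.39. In limma's test 4 were higher and 1 lower at an unadjusted p under 0.05, beside 9.82% and 6.83% of all genes tested. Cyp2e1, the brightest, gave 3.24 and 2.81 in Myd88-/- and 1.82 and 1.38 in Myd88+/+, and Fgg, a fibrinogen chain with the largest difference, 0.11 and 0.26 against −1.17 and −1.49. Neither passed adjustment as reported (adjusted p = 0.199 and 0.194 in limma), but with trended and robust moderation both did (0.0454 and 0.0333), as did Fgg with normexp (0.0322). Over all alternatives their adjusted p reached 0.539. The summed level of the list was 26.6 and 20.9 in Myd88-/- and 15.4 and 12.0 in Myd88+/+. Of the 11 tested genes 10 were well above background on all 4 arrays. Of the 6 not tested, Alb, Apoa1, Serpina3k and Hpx were well above background on 0 of the 4 arrays, and Apob and Tdo2 on 2 each. The part of liver genes in the Mup result was not tested. Since Mup expression differs by sex, Y-linked genes were read too: Ddx3y, Eif2s3y and Kdm5d were well above background on 0 of the 4 arrays, and Uty on 1 array of each genotype.

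Myd88 itself gave 1.51 and 1.41 in Myd88-/- and 1.15 and 1.07 in Myd88+/+ (log2 difference 0.35 ± 0.11 (SE), adjusted p = 0.264 in limma). Its only probe lies at base 1629 of the transcript (chr9:119245322-119245381, mm9). The sources used here do not say which exons were deleted, so the probe does not check the labels, and every direction given here rests on them.

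**Figure D4:**
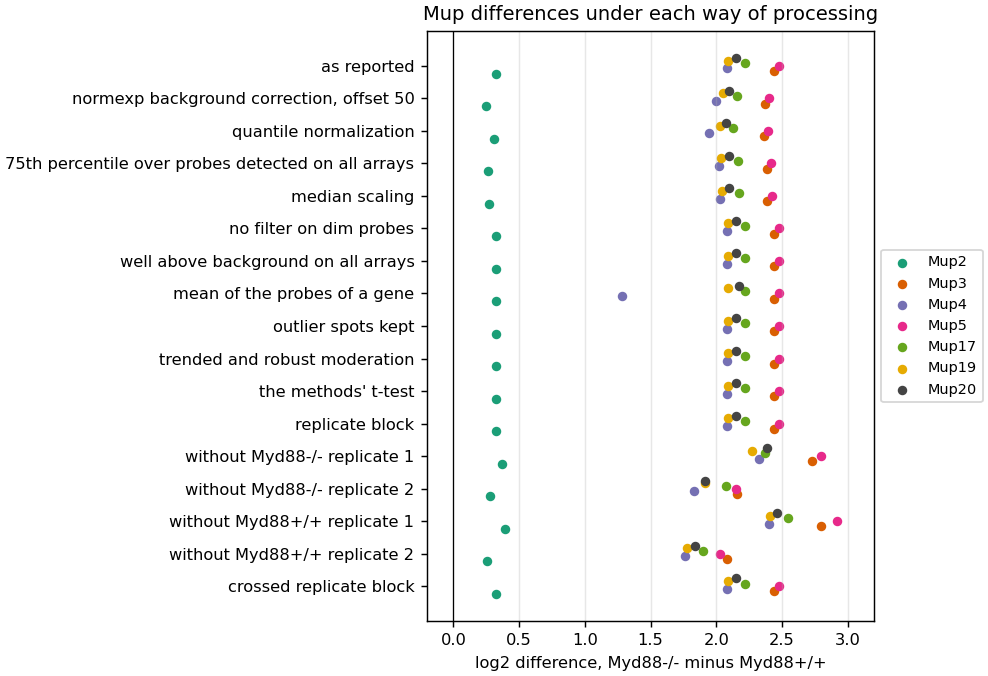
Log2 difference, Myd88-/- minus Myd88+/+ (x axis), of each of the 7 Mup genes (colours) under each way of processing the arrays (rows). Every point is above 0. Mup2 stays between 0.25 and 0.39, Mup4 falls to 1.28 when its probes are averaged, and the other genes stay between 1.78 and 2.92.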

How the data were processed

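RNA of SGs from 2 Myd88-/- and 2 Myd88+/+ samples was hybridized to 1 array each, all on 1 slide and in 1 scan. The authors deposited scanner output of Feature Extraction 10.7.3.1: a processed signal intensity corrected for background and trends within the array, with no normalization between arrays, the mean spot intensity, the local background and flags. A processed table with 4 value columns was not used, because the columns could not be assigned to samples.

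Here log2 was taken, and the 75th percentile of the log2 values of the 59305 non-control spots of each array was subtracted. Outlier spots were dropped and replicate spots averaged. Probes entered the test when both arrays of a genotype, either one, were well above background, and each gene was represented by its brightest such probe. Genotypes were compared with limma 3.58.1 in R 4.3.3 (lmFit and eBayes, Benjamini-Hochberg over 22312 genes, threshold 0.05), which was tested on simulated data. Positions are those of the files (mm9). Promoters are RefSeq (GRCm38.p6). The members, lists and markers were chosen with earlier results of these data known. All Mup-named probes and Myd88 are reported. Named from each list were called genes or the 4 largest differences with an unadjusted p under 0.05. From the hepatocyte, acinar and parotid lists the brightest and the most different gene were named. The sex genes and the crossed pairing were added after seeing the data. Ghr and Folh1 were named after their values were seen. Precision is limited by the small number of arrays.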

Additional observations from a re-analysis of the deposited data

How the results depend on the processing

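The median log2 difference of the Mup genes was 2.08 to 2.17 under the other scalings, background correction, filters, tests and blocks, and 1.84 to 2.46 when 1 array was left out. Mup4 was 1.28 when the mean of its probes stood for the gene. The number of genes past an adjusted p of 0.05 was 0 as reported, 79 with normexp background correction (offset 50), 402 with median scaling, 482 with trended and robust moderation in limma and 1 with the methods' t-test, which found 2935 before adjustment. When any 1 array was left out it was 0 in limma, with 2192 to 3033 at an unadjusted p under 0.05, and 0 as well were the calls among lipocalins, hormone genes and neighbours. With the replicate number as a block, 0 genes were called and 2410 had an unadjusted p under 0.05, against 3715 without the block. Same-numbered arrays deviated in opposite directions (correlation −0.37), and a crossed pairing, added after seeing the data, gave 0 and 4157. Median scaling called 1 hormone gene, Esr1, whereas without the filter on dim probes Esr1 was 0.58, read from another probe. Signs also turned for Dcpp2 (−0.018 with quantile normalization) and Ghr (0.048 with the mean of its probes), and with 1 array left out for Psp (−0.51 to 0.14) and Ghr (−0.11 to 0.0084). For the others the cause was not tested. With 2 arrays for each genotype, small differences such as that of Mup2 are poorly resolved.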
